A study of Mus musculus with 35 samples.

Results

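Hmox1 and 8 further genes that the transcription factor NRF2 is known to switch on (Nqo1, Gclc, Gclm, Txnrd1, Srxn1, Slc7a11, Gsr and Prdx1) were followed in mouse lung after exposure to 3 code-named nanomaterials. All array probes that map to these 9 symbols were taken, which gave 12 of 55681 probes: 2 each for Hmox1, Gsr and Prdx1 and 1 each for the rest. The set was chosen by the Hmox1 values of these arrays, which were high with NRCWE-043 against control and the other materials, so Hmox1 is described without a test. Tests are given for the other genes. The series ranks the materials by how strongly they perturb lung pathways, and it held 35 two-colour arrays in 7 groups of 5. Female C57BL/6 mice aged 5 to 7 weeks received 0 µg (control), or 18 or 54 µg per animal of one of the materials NRCWE-043, NRCWE-044 and NRCWE-045, once into the trachea in 40 µl, and whole lung RNA was taken at 24 h. The labels give neither the vehicle of the controls nor whether each array is a mouse of its own, and p-values therefore measure only the spread between samples, which may be technical. A value is the log2 ratio of lung RNA (Cy5) to a common mouse reference RNA made from 11 cell lines (Cy3), and a change is the difference of group means on that scale.

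NRF2 is a transcription factor that KEAP1, an adaptor of a ubiquitin ligase, holds at a low level in resting cells. Electrophiles and oxidants modify KEAP1, after which NRF2 accumulates, pairs with a small MAF protein and binds antioxidant response elements in the promoters and enhancers of its targets. Hmox1 encodes heme oxygenase 1, which breaks heme down to biliverdin, iron and carbon monoxide. It differs from the other targets in that heme also relieves its repression by BACH1, and it is known to be abundant in macrophages that take up red cells.

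RefSeq promoter windows on GRCm38.p6, from 250 bases before to 50 after the start, were at hand for 6 of the 9 genes (8 windows). Hmox1, Gclc and Gsr had no window. The windows were searched for the core of the antioxidant response element, TGACNNNGC, on either strand. The core was present in 4 of these 6 genes (Gclm, Prdx1, Txnrd1 and Srxn1), while 12.4% of the 32851 promoters of that table held it. A gene was counted if any of its windows held a match, and Txnrd1 had several windows. Counts of genes and shares of promoters are therefore unlike measures. The looser TGANNNNGC, which contains the core, was present in 5 of 6 genes and in 41.3% of the promoters. Windows of Nqo1 held neither form, and that of Slc7a11 held only the looser one. The stretches around the cores upstream of the start are shown, because they are the sequences through which NRF2 is known to reach its targets. Each is read along the + strand, the strand of the gene, and capitals mark the core, which here lies on the opposite strand. It starts 134 bases before the start in Gclm (chr3:122245398-122245457), 133 in Prdx1 (chr4:116685441-116685500) and 92 in the second Txnrd1 window (chr10:82859089-82859148). A match is a description of letters, and binding was not measured.
Gclm: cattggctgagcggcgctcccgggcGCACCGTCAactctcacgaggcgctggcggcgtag
Prdx1: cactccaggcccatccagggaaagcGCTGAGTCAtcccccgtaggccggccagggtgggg
Txnrd1: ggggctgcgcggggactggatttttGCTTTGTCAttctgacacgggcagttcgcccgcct

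Some arrays stood apart. The share of probes well above background in Cy5 ran from 42.8 to 69.3% over the arrays. NRCWE-043 at 18 µg replicates 5 and 10 and NRCWE-044 at 18 µg replicates 6 and 23 had a median correlation with the other arrays of 0.833 to 0.893, against 0.910 or more for all others. Control replicate 7 differed from the other controls in Hmox1, as given below. Several calls that these arrays decide are given with and without them. Whether the label of control replicate 7 is right cannot be told from the files; it was kept as labelled, and it enters the control mean of each comparison with control. Adipose markers (7 tested) had a mean log2 ratio of 0.93 to 1.86 in controls. It was 5.34 and 5.07 in replicates 4 and 34 of NRCWE-044 at 54 µg and 4.42 and 3.01 in replicates 9 and 19 of NRCWE-043 at 54 µg. At 18 µg it was 3.03, 2.93 and 2.21 in replicates 23, 6 and 11 of NRCWE-044, and 2.18 in replicate 26 of NRCWE-043. Heart muscle markers (8 tested) also differed between arrays, controls among them. Their mean log2 ratio was 3.46 and 3.62 in control replicates 2 and 29. In control replicates 7, 15 and 30 it was 0.06, 0.28 and 0.28. The highest array of each treated group lay between 2.40 (NRCWE-043 at 54 µg) and 3.51 (NRCWE-044 at 18 µg). The part of adipose and heart muscle markers in differences between groups was not tested. The mean log2 ratio of 8 tested lung epithelium markers was 6.13 to 6.52 in the 7 groups, so the labelled tissue was present throughout. Of 12 probes, 11 (of 8 genes) passed the filter on low signal, as did 34326 of all probes. The Slc7a11 probe (A_52_P368057), for the cystine importer that feeds glutathione synthesis, lay well above background on 1 of 35 arrays and was not tested.

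Hmox1 was high in the NRCWE-043 arrays and low in nearly all others. On the brighter probe (A_51_P263965) the controls stood at -3.33, -1.43, -4.07, -3.95 and -3.21 in replicates 2, 7, 15, 29 and 30. The 5 arrays of NRCWE-043 at 18 µg stood at -1.36, -0.62, -1.45, -0.91 and -0.50. Those at 54 µg stood at -0.60, -0.64, -0.12, -0.82 and -0.25. All arrays of both NRCWE-043 doses thus lay above 4 of the 5 controls, and control replicate 7 lay inside the range of the 18 µg group and below the 54 µg group.

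The other materials left Hmox1 near the remaining controls. NRCWE-044 gave -3.05, -3.42, -3.96, -3.66 and -2.37 at 18 µg and -3.31, -3.71, -3.36, -3.53 and -3.53 at 54 µg. NRCWE-045 gave -3.17, -3.52, -3.75, -3.82 and -4.04 at 18 µg and -3.68, -3.77, -4.11, -3.24 and -3.78 at 54 µg. None of these 20 arrays, which ran from -4.11 to -2.37 with a median of -3.59, reached the lowest of the 10 NRCWE-043 arrays, which ran from -1.45 to -0.12 with a median of -0.63.

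**Figure D1:**
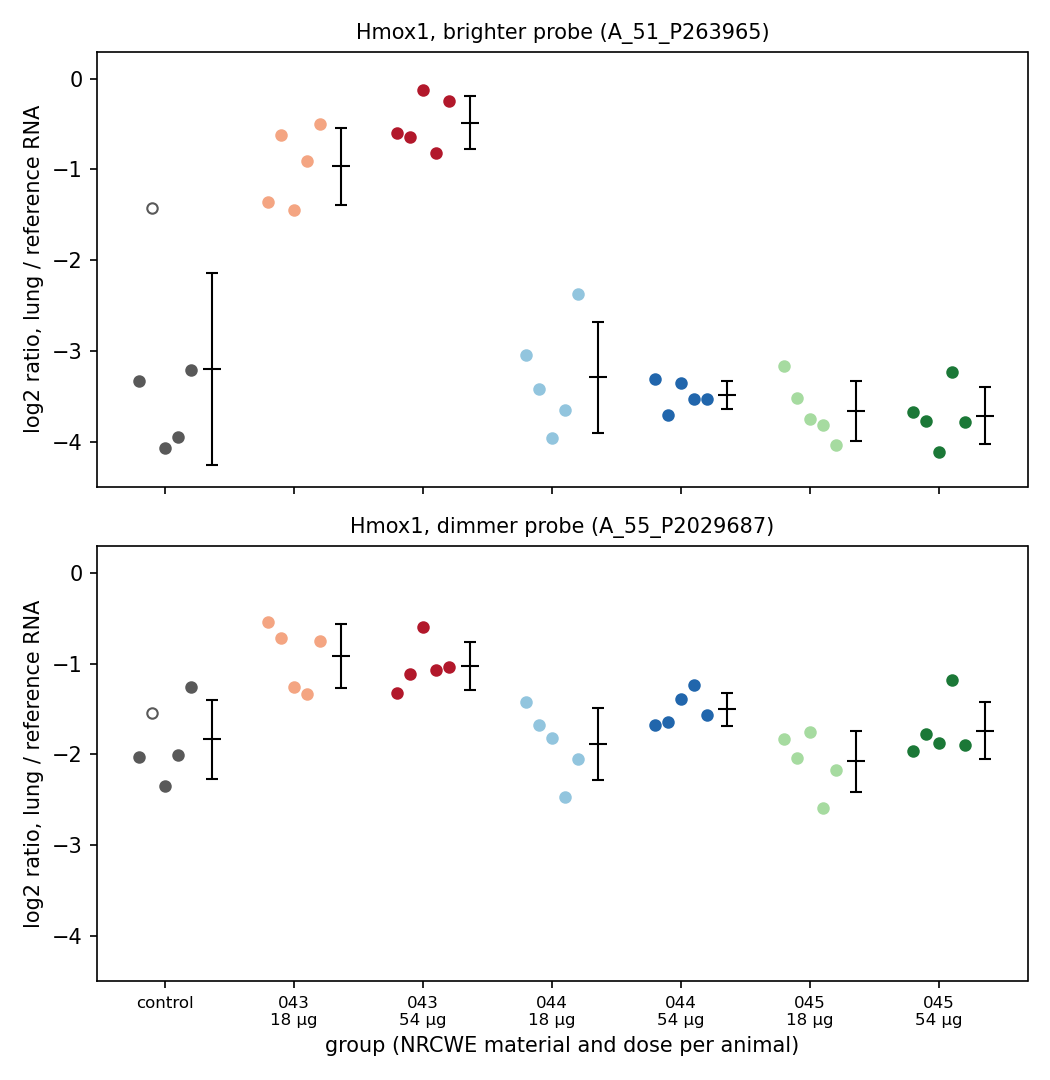
Log2 ratio of lung to reference RNA for both Hmox1 probes in the 7 groups (one panel per probe). Points are arrays, bars are the mean ± SD over 5 arrays, and the open circle is control replicate 7. On the brighter probe the NRCWE-043 groups average -0.97 and -0.49 and the other 5 groups lie between -3.72 and -3.20.

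In order of level, the brighter probe averaged -0.49 ± 0.29 (SD, n = 5) with NRCWE-043 at 54 µg and -0.97 ± 0.43 (SD, n = 5) at 18 µg. Control followed at -3.20 ± 1.06, NRCWE-044 at -3.29 ± 0.61 (18 µg) and -3.49 ± 0.16 (54 µg), and NRCWE-045 at -3.66 ± 0.33 (18 µg) and -3.72 ± 0.31 (54 µg; SD, n = 5 each). All neighbours in this order overlapped, and between NRCWE-043 at 18 µg and control the overlap came from control replicate 7 alone. Against control the means differed by 2.23 (4.69-fold) and 2.71 (6.55-fold) for NRCWE-043 at 18 and 54 µg. The same differences were -0.09 and -0.29 for NRCWE-044, and -0.46 and -0.52 for NRCWE-045. These 6 comparisons share the 5 controls.

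Between materials at the same dose, which share no controls, NRCWE-044 lay below NRCWE-043 by a log2 difference of -2.33 at 18 µg and -3.00 at 54 µg. NRCWE-045 lay below it by -2.69 and -3.23, and the groups did not overlap in any of these 4 comparisons. The step from 18 to 54 µg of NRCWE-043 was 0.48, with overlapping arrays.

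Control replicate 7 set much of the spread of the control group. Without it the controls averaged -3.64 ± 0.43 (SD, n = 4), and the NRCWE-043 differences became 2.67 at 18 µg and 3.15 at 54 µg. The differences then became 0.35 and 0.15 for NRCWE-044 and -0.02 and -0.07 for NRCWE-045, so their sign was not settled for NRCWE-044. Within slides that held both groups, the NRCWE-043 difference was 1.02 (18 µg) and 1.78 (54 µg) on slide 1, which held control replicate 7, and 2.62 and 3.60 on slide 3.

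The dimmer Hmox1 probe (A_55_P2029687) gave the same order of NRCWE-043 against control with smaller differences. Its controls stood at -2.02, -1.54, -2.34, -2.01 and -1.26 in replicates 2, 7, 15, 29 and 30 (mean -1.83 ± 0.43, SD, n = 5). NRCWE-043 stood at -0.54, -0.71, -1.25, -1.34 and -0.76 at 18 µg and at -1.33, -1.11, -0.60, -1.07 and -1.03 at 54 µg. Here it was control replicate 30, not replicate 7, that reached the NRCWE-043 arrays, together with 2 of the 20 arrays of the other materials.

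On this probe the difference from control was 0.91 (1.89-fold) for NRCWE-043 at 18 µg and 0.81 (1.75-fold) at 54 µg, against 2.23 and 2.71 on the brighter probe. It was -0.05 and 0.33 for NRCWE-044 and -0.24 and 0.10 for NRCWE-045. The probes differed in signal: the median Cy5 intensity was 584 (303 to 7379.5) on the brighter probe and 170.5 (104.5 to 492) on the dimmer one, where the local background was 72. With the scanner software's own processed signals, from which background has been subtracted, the dimmer probe differed by 1.43 and 1.50 and the brighter by 2.52 and 2.91. The part of the low signal in the smaller difference was not tested further.

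**Figure D2:**
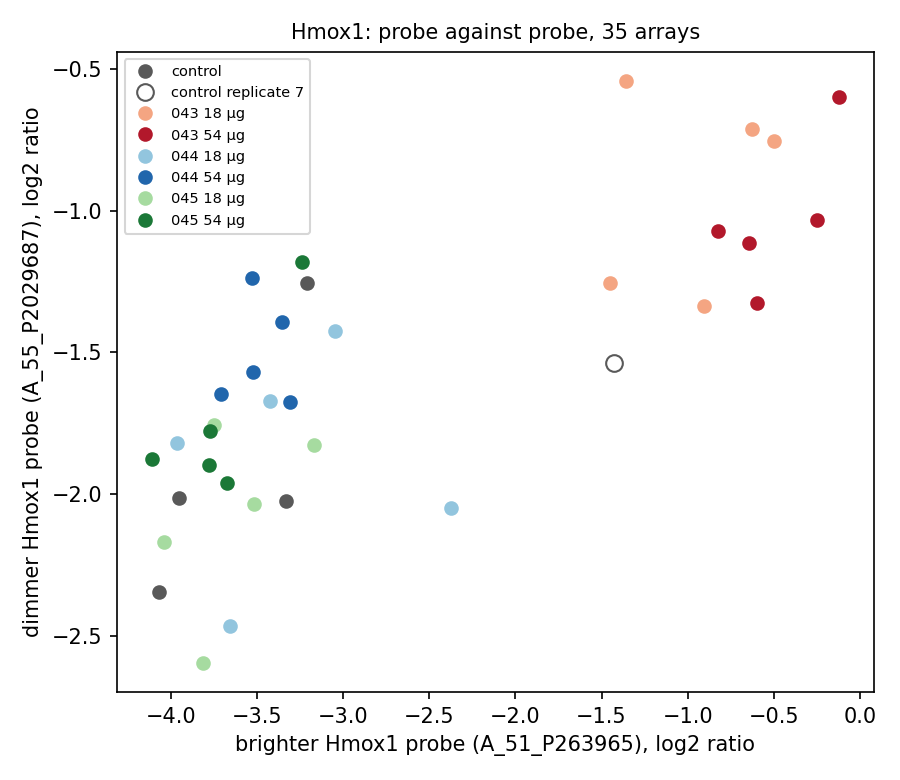
Log2 ratio of the dimmer against the brighter Hmox1 probe, one point per array, in the colour of its group. The 10 NRCWE-043 arrays form the upper right cloud, and control replicate 7 lies with them on the brighter probe at -1.43.

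Because the arrays form separate clouds, the probes were set against each other within them. Over the 25 arrays without NRCWE-043 the Pearson correlation of the Hmox1 probes was 0.36, and over the deviations of the 35 arrays from their group means it was 0.42. The same correlation of deviations was 0.51 for the Gsr probes and 0.68 for the Prdx1 probes. Without NRCWE-043 the Pearson correlation was 0.62 for Gsr and 0.52 for Prdx1. By Spearman correlation the deviations lay closer together, at 0.47 for Hmox1, 0.49 for Gsr and 0.53 for Prdx1. Probes of a gene share the RNA and the array, so these are descriptions of how far the probes vary together.

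The remaining 7 tested genes, on 9 probes, differed from control by at most 0.65 on the log2 scale in any group. With NRCWE-043 at 54 µg 1 of 9 probes passed the test (adjusted p under 0.05, limma over all probes), where 8.84% of all probes passed. With NRCWE-044 at 54 µg it was 1 of 9, against 5.07%. At an unadjusted p under 0.05 it was 5 of 9 with NRCWE-043 at 54 µg, and 7446 of all 34326 probes. With NRCWE-044 at 54 µg it was 3 of 9, and 6186 of all probes. None of the 9 passed with NRCWE-043 at 18 µg (3.66% of all probes; 2 of the 9 at an unadjusted p under 0.05, and 6261 of all probes) or NRCWE-044 at 18 µg (0%; 0 at an unadjusted p, and 3611 of all probes). None passed with NRCWE-045 at 18 µg (0%; 0 at an unadjusted p, and 949 of all probes) or at 54 µg (0.265%; 1 at an unadjusted p, and 2971 of all probes). The median change of the 9 probes was 0.03 and 0.34 for NRCWE-043, -0.03 and 0.23 for NRCWE-044, and 0.06 and 0.12 for NRCWE-045 at 18 and 54 µg. Over all probes tested it was between -0.03 and 0.01.

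**Figure D3:**
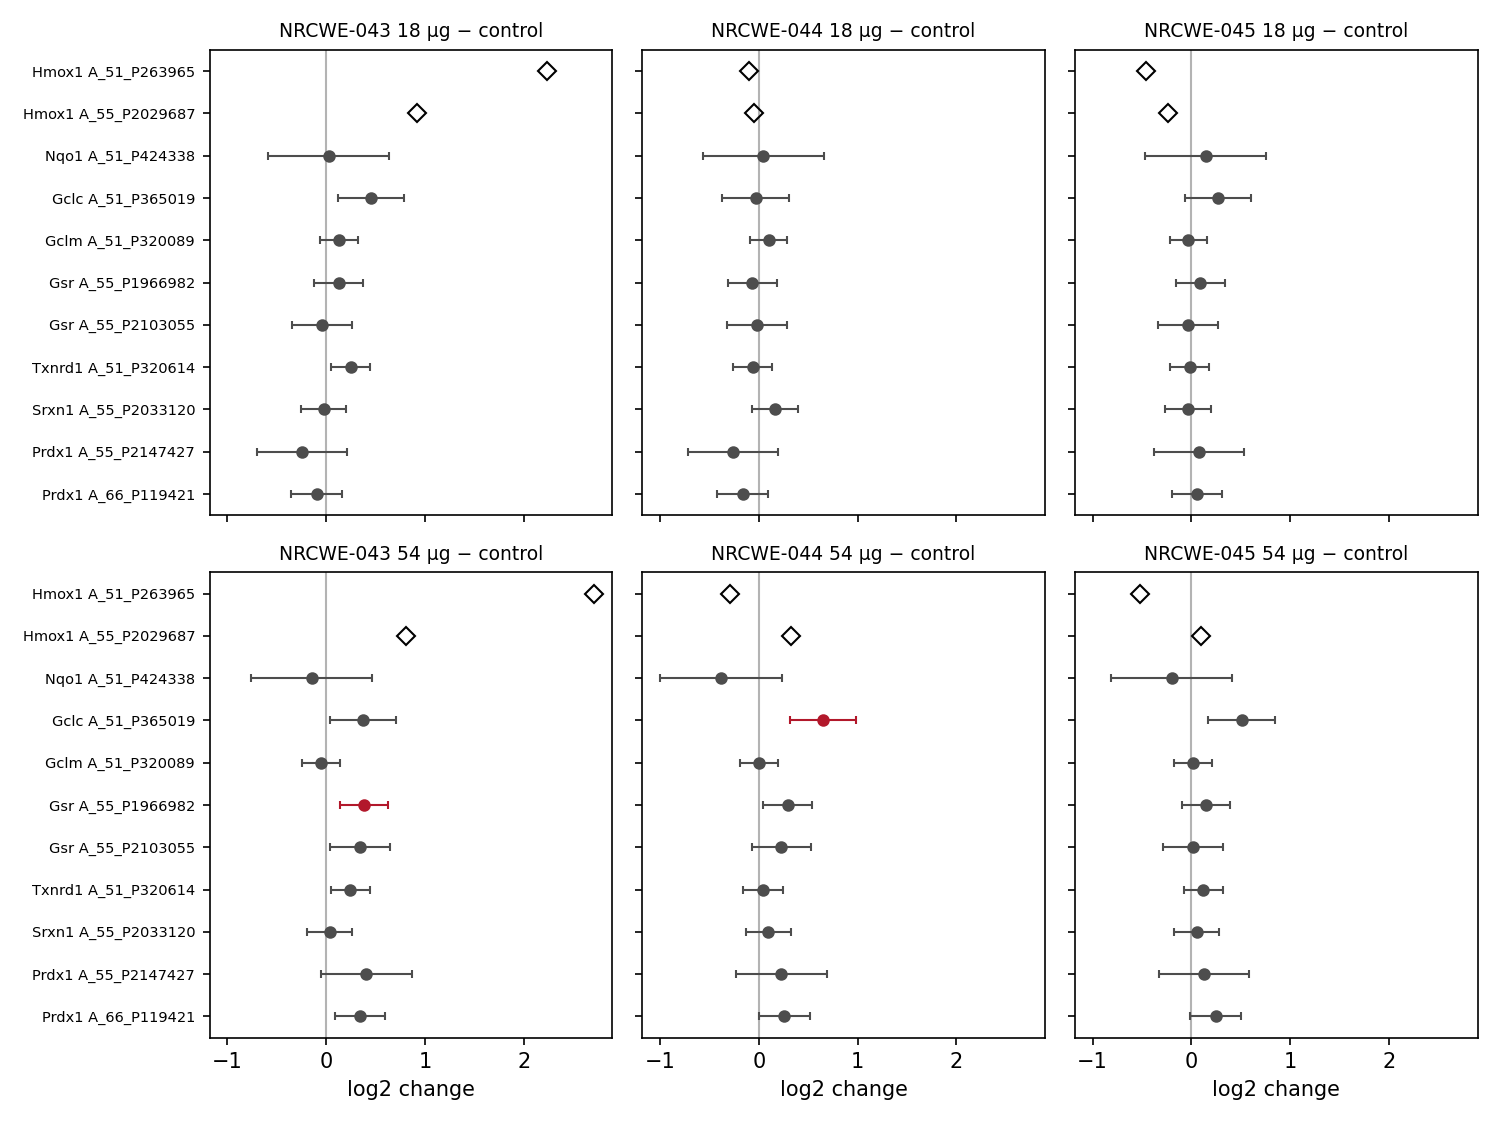
Log2 change against control of the tested probes of 8 genes in the 6 treated groups (one panel per group). Open diamonds are the Hmox1 probes, given without interval; circles are the other probes with 95% intervals, red where the adjusted p is under 0.05. Gsr at 0.38 with NRCWE-043 at 54 µg and Gclc at 0.65 with NRCWE-044 at 54 µg are the red points.

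Gclc encodes the catalytic subunit of glutamate-cysteine ligase, the rate-limiting enzyme of glutathione synthesis. Its controls stood at 1.89, 1.75, 1.76, 2.02 and 2.39. With NRCWE-044 at 54 µg they were 2.82, 2.72, 2.41, 2.68 and 2.42, so every treated array lay above every control. Gclc rose by 0.65 (SE 0.17, 95% interval 0.31 to 0.99, adjusted p = 0.016, limma). Within the 3 slides that held both groups the difference was 0.29 to 1.00. The call was lost without control replicate 7 (adjusted p = 0.057), control replicate 15 (adjusted p = 0.052) or treated replicate 4 (adjusted p = 0.056), and with median centring (adjusted p = 1.00). Treated replicates 4 and 34 were the arrays with high adipose markers, whose part in the Gclc change was not tested.

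At 18 µg of NRCWE-044 Gclc stood at 1.64, 2.30, 1.85, 1.81 and 2.05, all below the lowest array at 54 µg. The step from 18 to 54 µg was 0.68 (SE 0.17, adjusted p = 0.010, limma), was called in each omission of a single array, and was not called with median centring (adjusted p = 0.65). With the other materials Gclc was also above the control mean, without passing the test. NRCWE-043 differed by 0.45 (95% interval 0.12 to 0.79, adjusted p = 0.13) at 18 µg and 0.37 (0.03 to 0.71, adjusted p = 0.18) at 54 µg. NRCWE-045 differed by 0.27 (-0.07 to 0.61) and 0.51 (0.17 to 0.85, adjusted p = 0.22).

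Gclm, which encodes the modifier subunit that partners Gclc, passed the test in no group. Its control level was -0.46 ± 0.22 (SD, n = 5), and its 6 changes lay between -0.05 and 0.13 with 95% intervals inside -0.24 and 0.32. Its probe was dim, at a median Cy5 intensity of 177.

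Gsr encodes glutathione reductase, which returns oxidised glutathione to its reduced form. On its brighter probe (A_55_P1966982) the controls stood at 0.07, -0.07, -0.28, -0.01 and 0.29, and NRCWE-043 at 54 µg at 0.56, 0.31, 0.30, 0.37 and 0.37. The groups did not overlap, though the highest control and the lowest treated array lay close together. Gsr rose by 0.38 (SE 0.12, 95% interval 0.14 to 0.63, adjusted p = 0.042, limma), and by 0.55 to 0.62 within the 2 slides that held both groups. The call was near the threshold: it was lost in 9 of 10 omissions of a single array (adjusted p = 0.029 to 0.14; it was called only without control replicate 30) and in 15 of 27 alternatives in all, among them the deposited values (adjusted p = 0.058) and median centring, where the change was 0.72 (adjusted p = 0.22). The second Gsr probe (A_55_P2103055) changed by 0.34 (SE 0.15, adjusted p = 0.16), and passed when the 4 arrays that stood apart were left out (adjusted p = 0.035). With NRCWE-044 at 54 µg the brighter probe differed by 0.29 (0.05 to 0.54, adjusted p = 0.17).

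Txnrd1 encodes the cytosolic thioredoxin reductase. It averaged -0.99 ± 0.24 (SD, n = 5) in controls and -0.74 at both doses of NRCWE-043, a difference of 0.25 (adjusted p = 0.16) and 0.24 (adjusted p = 0.13). The difference at 54 µg was called with slides as a fixed block (0.27, adjusted p = 0.040, limma). It was also called without control replicate 30 (0.34, adjusted p = 0.029). In the comparison of materials at 18 µg, NRCWE-043 stood at -0.82, -0.81, -0.83, -0.53 and -0.71 and NRCWE-044 at -1.25, -1.05, -1.12, -0.98 and -0.83. The groups met at their ends, and Txnrd1 was lower with NRCWE-044 by a log2 difference of -0.31 (SE 0.098, 95% interval -0.51 to -0.11, adjusted p = 0.039, limma). Here 10% of all probes passed, against 1 of the 9. Within 4 slides the difference was -0.44 to -0.24. The call was lost in 6 of 10 omissions of a single array: NRCWE-043 replicate 10 (adjusted p = 0.051), 26 (0.11) or 33 (0.073), and NRCWE-044 replicate 6 (0.11), 11 (0.062) or 17 (0.080). It was also lost without the 4 arrays that stood apart (adjusted p = 0.063) and with median centring, where the difference was -0.51 (adjusted p = 0.62).

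Prdx1 encodes a peroxiredoxin, which reduces hydrogen peroxide with thioredoxin. On probe A_66_P119421 NRCWE-044 stood at -0.91, -1.06, -0.82, -0.85 and -1.05 at 18 µg and at -0.42, -0.60, -0.59, -0.46 and -0.50 at 54 µg, without overlap. The step of 0.42 (SE 0.13) passed narrowly (adjusted p = 0.042, limma) and was lost in 9 of 10 omissions of a single array (adjusted p = 0.047 to 0.10; it was called only without replicate 17 at 18 µg), and with slides as a fixed block (adjusted p = 0.098). Together with Gclc this made 2 of 9 probes higher at 54 than at 18 µg of NRCWE-044, where 5.52% of all probes passed. None of the 9 passed for the dose step of NRCWE-043 (0.851% of all probes) or NRCWE-045 (0%). At an unadjusted p under 0.05 it was 4 of the 9 for NRCWE-043, and 4723 of all probes. For NRCWE-045 it was 0 of the 9, and 1214 of all probes.

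Against control, the same Prdx1 probe with NRCWE-043 at 54 µg stood at -0.37, -0.45, -0.39, -0.47 and -0.47, above all 5 controls at -0.85, -0.96, -0.79, -0.65 and -0.62. The difference of 0.34 did not pass (95% interval 0.09 to 0.60, adjusted p = 0.088), but it passed without the 4 arrays that stood apart (adjusted p = 0.0022). Those arrays touched Prdx1 directly. On its brighter probe (A_55_P2147427) NRCWE-043 replicates 5 and 10 at 18 µg stood at -1.66 and -1.36, against -0.24, -0.16 and -0.13 in the other arrays of that group. That probe differed from control by 0.41 at 54 µg of NRCWE-043 (adjusted p = 0.30, and adjusted p = 0.033 without the 4 arrays). Without them, Prdx1 was also called lower with NRCWE-044 than NRCWE-043 at 18 µg (limma). The brighter probe went from -0.02 (adjusted p = 0.97) to -0.53 (adjusted p = 0.045). A_66_P119421 went from -0.07 (adjusted p = 0.80) to -0.36 (adjusted p = 0.017). Newly called as well were A_66_P119421 at 54 µg of NRCWE-044 against control (0.26, adjusted p = 0.024) and the brighter probe's NRCWE-044 dose step (0.47, adjusted p = 0.043).

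**Figure D4:**
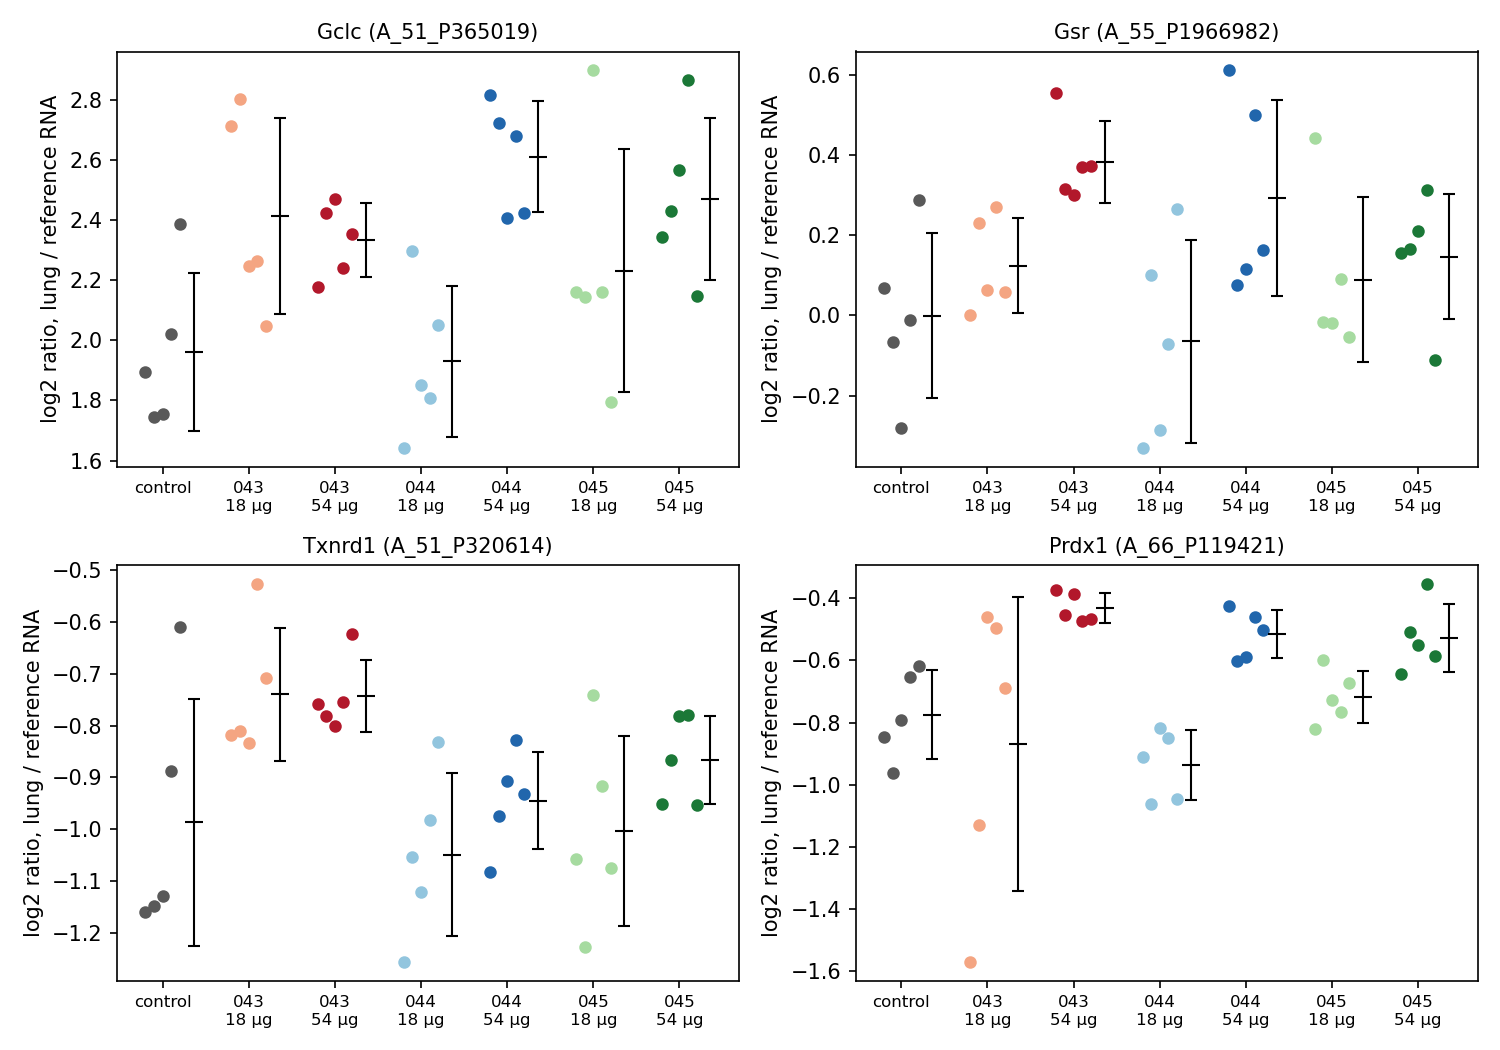
Log2 ratio of lung to reference RNA for Gclc, Gsr (A_55_P1966982), Txnrd1 and Prdx1 (A_66_P119421) in the 7 groups. Points are arrays and bars the mean ± SD over 5 arrays. Gclc is at 1.96 in controls and 2.61 with NRCWE-044 at 54 µg, and the spread of Prdx1 is widest with NRCWE-043 at 18 µg (SD 0.47).

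Nqo1 and Srxn1 showed no change that passed. Nqo1, a quinone reductase often used as a readout of NRF2, averaged -1.93 ± 0.33 (SD, n = 5) in controls, and its difference at 54 µg of NRCWE-043 was -0.15 (95% interval -0.76 to 0.46). Its widest difference was -0.38 with NRCWE-044 at 54 µg (-0.995 to 0.231, adjusted p = 0.57). The arrays of NRCWE-044 at 18 µg ran from -3.10 (replicate 23) to -0.11 (replicate 6), 2 of the arrays that stood apart. Srxn1, which encodes sulfiredoxin, a repair enzyme of peroxiredoxins, averaged -1.14 ± 0.23 in controls and changed by -0.03 to 0.16. Slc7a11, which was not well above background, had group means between -0.43 and -0.20.

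In the remaining comparisons between materials none of the 9 probes passed. At 18 µg 8.04% of all probes passed for NRCWE-045 against NRCWE-043 and 0.315% for NRCWE-045 against NRCWE-044. At 54 µg the shares were 7.27% for NRCWE-044 against NRCWE-043, 5.09% for NRCWE-045 against NRCWE-043, and 0% for NRCWE-045 against NRCWE-044, where 1947 of all probes had an unadjusted p under 0.05. Gclc was lower with NRCWE-044 than with NRCWE-043 at 18 µg by a log2 difference of -0.48 (adjusted p = 0.058). Txnrd1 with NRCWE-045 against NRCWE-043 at 18 µg differed by -0.26 (adjusted p = 0.096, limma). It was called there with the deposited values (adjusted p = 0.041) and with slides as a fixed (0.022) or random block (0.035). With NRCWE-044 against NRCWE-043 at 54 µg Txnrd1 differed by -0.20 (adjusted p = 0.27), and was called with slides as a fixed block (adjusted p = 0.039).

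Around these genes, lists of the wider pathway were counted at 54 µg with their brightest probe for each gene. With NRCWE-043 4.73% of all probes passed higher and 4.1% lower, and with NRCWE-044 3.35% and 1.72%. The 11 regulators of the pathway did not pass with either material. Nfe2l2, the gene of NRF2, differed from control by 0.06 (adjusted p = 0.79) with NRCWE-043 and -0.16 (adjusted p = 0.36) with NRCWE-044. Keap1 differed by 0.07 and 0.02, and Bach1, the heme-sensing repressor of Hmox1, by 0.06 and -0.31 (adjusted p = 0.15).

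Several detoxifying enzymes that NRF2 can also drive fell. Of 19 glutathione transferases, which attach glutathione to electrophiles, 5 fell and 0 rose with NRCWE-043, led by Gsta2 at -1.38 (adjusted p = 0.014), Gsta3 at -1.25 (adjusted p = 0.00056) and Gstm1 at -1.02 (adjusted p = 0.00045). With NRCWE-044 2 fell, Gsta2 at -1.84 and Gstm1 at -1.08. The list medians were -0.25 and -0.19. Of 15 other enzymes and transporters, 5 fell and 2 rose with NRCWE-043 and 3 fell and 1 rose with NRCWE-044. Those that moved furthest were the retinal dehydrogenase Aldh1a1 (-1.53 and -1.08) and the epoxide hydrolase Ephx1 (-0.75 and -1.14), which fell, while the aldose reductase-like Akr1b8 (0.66 and 0.74) rose. The fall of Gsta2 with NRCWE-043 was not called without control replicate 30 (adjusted p = 0.065) or with slides as a fixed block (-1.10, adjusted p = 0.097). Median centring ended all of the calls named here except Gsta2 with NRCWE-044, and gave Gstm1 at -0.56 and Ephx1 at -0.26 with NRCWE-043. Airway and alveolar markers moved in the same group: of 8 lung epithelium markers, the club cell gene Scgb1a1 fell by 0.83 (adjusted p = 0.0060) and the type 1 cell water channel Aqp5 rose by 0.61 (adjusted p = 0.0048) with NRCWE-043 at 54 µg. Aqp5 was also called higher with NRCWE-043 at 18 µg (0.72, adjusted p = 0.0022, limma). The part of these markers in the enzymes' fall was not tested.

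Genes of heme and iron handling, the pathway in which Hmox1 acts, were counted among 21. With NRCWE-043 5 rose, among them the ferroxidase ceruloplasmin gene Cp at 1.06, the heme-binding hemopexin gene Hpx at 0.80 and the ferrireductase Steap4, and 1 fell, Alas1, the first enzyme of heme synthesis, at -0.59. With NRCWE-044, which left Hmox1 near control, 4 rose, with Cp at 1.13 and Slc11a1 at 0.70 besides Steap4, and Alas1 fell by 0.86. Slc11a1 also rose with NRCWE-043, by 0.70, and the transferrin receptor gene Tfrc rose by 0.61 with each material. Steap4 lay well above background on 2 of 5 controls and on 5 of 5 arrays of each material, so its differences of 1.25 and 0.97 are set against a control mean that is mostly near background. Hmox2, the constitutive heme oxygenase, differed by 0.26 and 0.18, the biliverdin reductase Blvrb by 0.16 and 0.03, and the ferritin chains Fth1 by 0.19 and 0.31 and Ftl1 by 0.03 and -0.09, none of which passed. The call of Hpx was lost without control replicate 2, 15 or 30 or treated replicate 3, 9 or 22 (adjusted p up to 0.12), and with slides as a fixed block (adjusted p = 0.083). Median centring ended the calls of Cp with both materials, of Hpx, and of Alas1 with NRCWE-044. For Cp with NRCWE-043 this loss lay at the threshold (adjusted p = 0.0500015, limma), while with NRCWE-044 the adjusted p was 0.77. Each was the only loss of a Cp call at 54 µg in 27 alternatives.

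**Figure D5:**
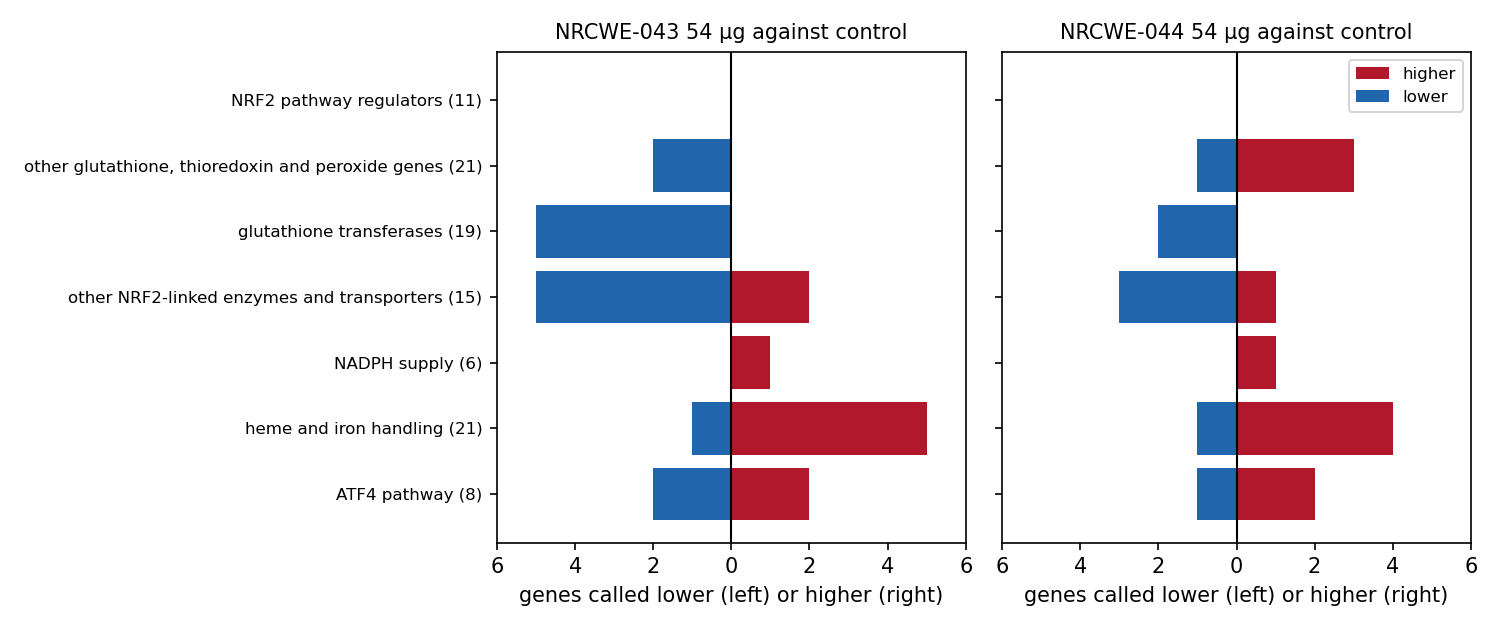
Number of genes called higher or lower than control at 54 µg of NRCWE-043 and NRCWE-044 in 7 lists of the NRF2, heme and ATF4 pathways; the number tested stands beside each list name. Glutathione transferases show 5 lower and 0 higher with NRCWE-043, and heme and iron handling 5 higher and 1 lower.

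Among 21 other genes of glutathione, thioredoxin and peroxide metabolism, 2 fell with NRCWE-043 (catalase, Cat, at -0.92 and the peroxiredoxin Prdx6 at -0.80). With NRCWE-044 3 rose (Prdx4 at 0.69, the mitochondrial superoxide dismutase Sod2 at 0.61 and Prdx3 at 0.37) and Prdx6 fell by 0.64. Of 6 genes of NADPH supply, 1 rose with each material: the transketolase Tkt by 1.04 with NRCWE-043 and the malic enzyme Me1 by 0.65 with NRCWE-044. Of 8 genes of the ATF4 pathway, which can also drive Slc7a11, 2 rose and 2 fell with NRCWE-043. Psat1, of serine synthesis, was at 0.76 and the stress factor Atf3 at 0.51, while Ddit4 was at -1.27 and Trib3 at -0.41. With NRCWE-044 Psat1 rose by 0.82 and Atf3 by 0.54, and Trib3 fell by 0.40.

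Several of these calls were lost when a single array was left out. Atf3 was lost in 8 of 10 omissions with each material: controls 2, 7, 29 or 30 with both, and replicates 9, 16, 19 or 22 of NRCWE-043 or 4, 18, 24 or 34 of NRCWE-044 (adjusted p up to 0.082 and 0.13), and with slides as a fixed block (adjusted p = 0.076 and 0.053). With NRCWE-044, Prdx4 was lost without control replicate 7 or treated replicate 4, Prdx6 without control 2 or 30 or treated 4 or 34, Me1 without control 7 or 15 or treated 4, 18 or 34, and Trib3 without control 7 or treated 24, 31 or 34 (adjusted p up to 0.055, 0.069, 0.12 and 0.073). Cat and Prdx6 with NRCWE-043 and Sod2 with NRCWE-044 were called in all 10 omissions, though not with median centring (adjusted p = 0.36, 0.76 and 1.00). Cat was at -0.47 with the mean of its probes (adjusted p = 0.14) and -0.57 with median centring. Prdx6 with NRCWE-043 was at -0.30 with median centring, and its call was also lost with scale normalization (adjusted p = 0.085) and with Cy5 alone (-0.48, adjusted p = 0.054). Psat1 with NRCWE-043 was lost with scale normalization (0.56, adjusted p = 0.16) and with the mean of its probes (0.47, adjusted p = 0.097). Ddit4 was at -0.77 with median centring (adjusted p = 0.39). The Me1 call with NRCWE-044 was lost, among others, without replicates 4 or 34. Among the arrays of that group these had high adipose markers, whose part in the call was not tested.

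At 18 µg and with NRCWE-045 few genes of the lists passed. With NRCWE-043 at 18 µg Cp rose by 1.02 and Tkt by 0.66, and Gsta3 fell by 0.85 and the cytosolic superoxide dismutase Sod1 by 0.91. Without the 4 arrays that stood apart, 2 of which are in this NRCWE-043 group, Sod1 was at -0.29 (adjusted p = 0.34), Gsta3 at -0.65 (adjusted p = 0.13) and Cp at 0.88 (adjusted p = 0.11), and none of these 3 was called. Tkt was still called there (0.86, adjusted p = 0.010), but not with slides as a fixed block (0.48, adjusted p = 0.12). When only the groups compared were fitted, no probe passed for NRCWE-043 at 18 µg against control, so none of these genes was called. With all groups fitted 1258 of all probes passed, and 78 with median centring. Sod1 was at -0.46 with processed signals (adjusted p = 0.10). With NRCWE-045 at 54 µg the transferrin receptor Tfrc rose by 0.52 and Atf3 by 0.81, and Trib3 fell by 0.54. These genes were also called in the same direction with NRCWE-043 and NRCWE-044 at 54 µg. Each of the calls with NRCWE-043 at 18 µg and NRCWE-045 at 54 µg was lost in 3 to 7 of the 10 omissions of a single array, control replicate 2 among them in every case (adjusted p up to 0.19).

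The genes most like Hmox1 over the arrays were sought among all tested probes with a symbol. By Pearson correlation with the brighter probe over 35 arrays, which share the high values of NRCWE-043, the 8 highest were Tifa, Lamtor2 and Cenpb (0.95 each), Clic1, Sertad3 and Ncl (0.94 each), and Prmt1 and Dnajc7 (0.93 each). Over deviations from the 7 group means the 8 highest were Prmt1 (0.75), Clic1 (0.74), Xpo7 (0.73), Swi5 (0.71), Sertad3 (0.70), Vma21 (0.70), Cenpb (0.69) and Arid3a (0.69). Cenpb, Clic1, Sertad3 and Prmt1 were in both sets. None of the genes named was in the NRF2 lists. Those lists are a small part of all genes searched, so an absence from sets of 8 says little about NRF2 targets. Control replicate 7 lay near NRCWE-043 in these genes too, which a choice by likeness to Hmox1 favours. Tifa stood at -0.06 in replicate 7, at a mean of -1.21 in the other controls and of 0.19 in the NRCWE-043 arrays, and Lamtor2 at 0.12, -1.50 and 0.22. In Clic1 the same values were -0.35, -1.53 and -0.19.

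Markers of other cells moved with NRCWE-043 at 54 µg. Of 9 markers of monocytes and interstitial macrophages, cells that can express Hmox1, 4 rose, among them Ccr2 at 1.16, C1qb at 0.94 and F13a1 at 0.86. The mean log2 ratio of the 9 markers ran from 1.55 to 1.70 over controls and from 1.88 to 2.59 with NRCWE-043 at 54 µg. It also ran from 1.85 to 2.67 with NRCWE-044 at 54 µg, where Hmox1 stayed near control. With NRCWE-043 at 18 µg, where Hmox1 was high, it ran from 1.26 to 1.91. In control replicate 7 it was 1.55, the lowest control. At 18 µg of NRCWE-043 1 of the 9 markers was called, F13a1, at 0.86 (adjusted p = 0.0045, limma). Of 10 alveolar macrophage markers 4 fell with NRCWE-043 at 54 µg, led by Ear1 at -1.16, with list means of 3.80 to 4.33 against 4.01 to 4.47 in controls. With NRCWE-044 at 54 µg 2 of the 10 rose, Car4 at 0.65 and Mrc1 at 0.87, and 0 fell. With NRCWE-043 at 54 µg 3 of 9 neutrophil markers rose (Cxcr2 at 1.45) and 1 fell (Csf3r at -0.90). Of 7 red cell markers 1 fell there (Hbb-b2 at -0.93). Csf3r and Hbb-b2 were also called lower at 18 µg of NRCWE-043 (-0.57 and -0.75, adjusted p = 0.014 each, limma). The mean log2 ratio of the 7 red cell markers averaged 4.70 and 4.73 with NRCWE-043 at 18 and 54 µg. It averaged 5.17 to 5.29 in the other groups, control among them. Arrays overlapped: controls ran from 4.85, in replicate 7, to 6.09, and NRCWE-043 at 54 µg from 4.36 to 5.11. In whole lung, fewer cells of a type and less RNA per cell cannot be told apart, and the part of these cells in the Hmox1 values was not tested.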

How the data were processed

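Lung RNA (Cy5) and reference RNA (Cy3), 200 ng each, were measured on 35 arrays of one dye orientation; the deposited scanner files hold spot intensities, extracted with Feature Extraction 11.0.1.1 per the file headers. The deposited series values are log2 ratios, and how the authors normalized them is not given in the sources that were used; they served as an alternative. Median intensities were corrected with normexp (offset 50) and loess within arrays in limma 3.58.1 (R 4.3.3, package data.table at 1.17.8). Of 59305 spots besides 3671 control spots, marked ones were left out (1403 probe values missing), and spots of a probe were averaged. Probes were named through RefSeq accessions (27235 of 55681). The 34326 probes well above background in Cy5 on 3 of 5 arrays of a group were fitted with limma (lmFit, eBayes), and p-values were adjusted by Benjamini-Hochberg over all of them within each of 15 comparisons; calls are at an adjusted p under 0.05. The number of arrays, 5 per group, limits precision. On simulated data for NRCWE-043 at 54 µg against control, 56% of log2 changes of 0.5 and 96% of 1 were recovered, with 7 false calls. Only 50 probes were given each size of change, while 3034 were called in the measured comparison. The adjustment depends on how many probes change, so these shares need not hold for the measured data. Besides the 9 genes, up to 3 called genes per list and comparison, 7 regulators and heme genes in any case, and the 8 genes most correlated with Hmox1 were named. The value of 1 marker gene is not reported here. Members and lists were chosen with earlier results of these data known. Alternatives changed background correction, normalization, filter, probe summary, slide handling and arrays.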

Additional observations from a re-analysis of the deposited data

Results flagged for a closer look

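In 6 of 77 probe and group combinations 1 array lay far from the other 4, where chance gives about 1 in 20. These were the dimmer Hmox1 probe in replicate 32 of NRCWE-045 at 54 µg (-1.18, others -1.96 to -1.78), Gclm in replicate 26 of NRCWE-043 at 18 µg (-0.20) and the brighter Gsr probe in replicate 3 of NRCWE-043 at 54 µg (0.56). The others were the second Gsr probe in replicate 23 of NRCWE-044 at 18 µg (-0.22, others -1.08 to -0.83), Txnrd1 in replicate 22 of NRCWE-043 at 54 µg (-0.62), and Srxn1 in replicate 4 of NRCWE-044 at 54 µg (-0.98).

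Txnrd1 differed between NRCWE-044 and NRCWE-043 at 18 µg by a log2 difference of -0.31 in the direct comparison (limma, adjusted p = 0.039, lower than the NRCWE-043 mean in 5 of 5 arrays). On the brighter Hmox1 probe at 54 µg, every NRCWE-043 array lay above the control mean and every NRCWE-044 and NRCWE-045 array below it, with log2 differences of 3.00 and 3.23 between the materials, which were not tested. Without control replicate 7, which raises the control mean, the mean of NRCWE-044 at 54 µg lay above it by 0.15. Slc7a11, outside the tested probes, lay well above background in replicate 20 of NRCWE-043 at 18 µg only, at a log2 ratio of -0.21.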

How the results depend on the processing

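The Hmox1 differences of NRCWE-043 kept their sign in the alternatives run: 1.57 to 2.67 at 18 µg and 1.76 to 3.15 at 54 µg over 27 alternatives on the brighter probe, the lowest with the mean of its probes, and 0.72 to 1.43 and 0.68 to 1.50 over 25 on the dimmer one. Leaving out 1 array gave 2.01 to 2.67 and 2.49 to 3.15 on the brighter probe. The counts of the 9 other probes called moved as follows. For NRCWE-043 at 54 µg against control (1 called), 2 were called with processed signals, slides as a fixed block or only the groups compared, 4 without the 4 arrays that stood apart (chosen after seeing the data), and 0 with the deposited values, median centring, no filter, the mean of the probes of a gene, or without controls 7 and 29; single omissions gave 0 to 2. For NRCWE-044 at 54 µg against control (1) it was 2 with processed signals or without the 4 arrays, and 0 with median centring, Cy5 alone or without controls 7 and 29; single omissions gave 0 to 1. For NRCWE-044 against NRCWE-043 at 18 µg (1) it was 3 with processed signals, 2 with the deposited values, slides as a fixed or random block or without the 4 arrays, and 0 with median centring, scale normalization, Cy5 alone or only the groups compared; single omissions gave 0 to 1. For NRCWE-045 against NRCWE-043 at 18 µg (0) it was 1 with the deposited values and both slide blocks, and 0 to 1 in single omissions. For NRCWE-044 against NRCWE-043 at 54 µg (0) it was 1 with slides as a fixed block. For the NRCWE-043 dose step (0) it was 1 with slides as a random block, and 0 to 1 in single omissions. For the NRCWE-044 dose step (2) it was 1 with scale normalization, no filter, the brightest probe, the mean of the probes or slides as a fixed block, 0 with median centring, and 1 to 2 in single omissions. The cause was not tested. Over all probes median centring cut the calls of NRCWE-043 at 54 µg from 3034 to 641 and of NRCWE-044 at 54 µg from 1741 to 45, and moved the median of all probes for NRCWE-043 at 54 µg from 0.01 to 0.11. No paired analysis was possible because the sample numbers in the labels run over all arrays and no replicate number is shared between groups; slides, which hold arrays of several groups, entered as a block instead. The low Cy5 signal of Gclm, Nqo1, Slc7a11 and the dimmer Hmox1 probe limits what differences could be seen there.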
